A study of Oryza sativa with 24 samples.

Results

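Muguanuo, one rice accession, was compared with Geng87-304 and Youmangzaogeng, a pair of accessions treated together as the comparison group. The comparison used 9 of the 24 arrays of the series, chosen by the accession and treatment given in the sample labels: 3 of Muguanuo, 3 of Geng87-304 and 3 of Youmangzaogeng. Each accession had 1 array from seedlings before cold stress, 1 after 6 h and 1 after 24 h of cold. All seedlings had been raised in potting soil to the 4-leaf stage and then moved into a chamber held at 4 °C with 14 h of light and 10 h of dark. The sampled tissue was shoot and leaf, from which total RNA was labelled and hybridised to a rice GeneChip. No transgene, mutation or chemical treatment is given for any of the 9 samples, so accession and time in the cold were the labelled differences. The labels do not say whether arrays came from separate plantings or how many plants were pooled. The p-values therefore measured only the spread between these arrays, and the contrast set 1 accession against 2 rather than one class of rice against another.

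Rice is a chilling-sensitive cereal. In the cold, its seedlings rapidly induce DREB1 transcription factors, which bind the promoters of stress genes, together with regulators of jasmonate and abscisic acid signalling and of the circadian clock. Cultivated accessions also differ from each other at many loci irrespective of treatment. Some genes are present or transcribed in one accession and not in another, and a short oligonucleotide array reads a gene lower where the sequence under its probes differs from that of the reference.

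Each value was a deposited linear intensity for 1 probe set, the group of short probes that reports 1 transcript. Differences are given on the scale log2(intensity + 32), on which fold changes of dim probe sets are understated. The fit (limma with the time point as a block) covered 57258 probe sets, and a probe set passed at a Benjamini-Hochberg adjusted p under 0.05. A difference was called constant if the probe set passed and Muguanuo lay on the same side of both accessions by at least 1 log2 unit (2-fold) before cold, at 6 h and at 24 h, which makes 6 matched differences. The background level was set at 99.9, the highest reading of the 10 control probe sets for the fungus Magnaporthe on any of the 9 arrays. The highest control was 82.1, 66.7 and 63.1 on the Muguanuo arrays before cold, at 6 h and at 24 h. It was 89.6 to 95.7 in Geng87-304 and 79.7 to 99.9 in Youmangzaogeng. Outside the 9 arrays it reached 137.3 in 9311 at 6 h and 107.2 in MH63 before cold. A reading under 99.9 is called under background, which is stricter for Muguanuo than its own controls. Where a whole group stayed under that level, only a lower bound of the fold is given, taken against that level.

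The arrays of Muguanuo read slightly lower as a whole. Their median intensities were 42.7, 41.7 and 41.7 before cold, at 6 h and at 24 h, against 46.6, 45.8 and 45.8 in Geng87-304 and 44.7, 44.9 and 44.8 in Youmangzaogeng. A sign of RNA integrity, the log2 difference between 3′ and 5′ rice actin probe sets, was 3.49 to 4.05 in Muguanuo, 2.96 to 3.70 in Geng87-304 and 3.52 to 3.76 in Youmangzaogeng, and its part in the differences below was not tested. Leaf identity was alike: of 4 leaf markers measured, 3 were above background on all arrays of each accession, and their summed intensity was 22786 to 24930, 22768 to 24157 and 18115 to 19716 in the same order. Of 7 root markers, 2 were above background on every array, with sums of 575 to 764, 486 to 707 and 454 to 961, and the 6 meristem and panicle markers were above it on no array. In such bulk tissue, fewer cells of a type and less RNA per cell cannot be told apart. Elsewhere in the series, the Lixingeng array before cold and the MH63 array at 24 h were nearly identical (Spearman 0.9919, the highest of 276 array pairs, the next being 0.9808), against their labels. Both were left out of the ranges given below for other accessions, and neither entered the comparison.

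Geng87-304 and Youmangzaogeng resembled each other more than either resembled Muguanuo. At matched times the Spearman correlation over all probe sets was 0.9779, 0.9786 and 0.9749 between Geng87-304 and Youmangzaogeng. It was 0.9658, 0.9655 and 0.9632 between Geng87-304 and Muguanuo, and 0.9655, 0.967 and 0.9648 between Youmangzaogeng and Muguanuo. With accession at 3 levels, 578 probe sets passed with at least a 2-fold difference between Muguanuo and Geng87-304 (1.01% of those tested), of which 278 were higher and 300 lower in Muguanuo. Between Muguanuo and Youmangzaogeng the number was 588 (1.03%), with 239 higher and 349 lower. Between Youmangzaogeng and Geng87-304 it was 311 (0.543%), with 195 higher and 116 lower in Youmangzaogeng. These 3 contrasts share arrays, so the counts stand side by side and their difference was not tested.

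**Figure D1:**
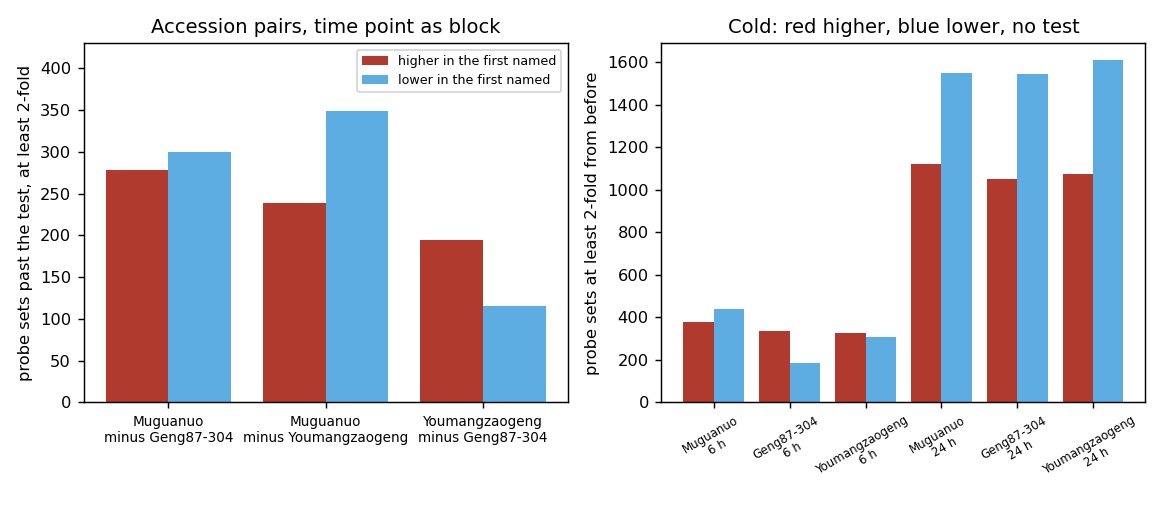
Left, the number of probe sets that passed the limma test with at least a 2-fold difference in each accession pair, split by direction. The first 2 pairs, with Muguanuo, reach 578 and 588 probe sets, against 311 for Youmangzaogeng minus Geng87-304. Right, the number of probe sets at least 2-fold above (red) or below (blue) the array before cold in each accession at 6 h and 24 h, from 1 array per bar pair and with no test; the 24 h totals run from 2594 to 2682.

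In the fit of Muguanuo against both accessions, 3025 probe sets passed as higher (5.28%) and 6600 as lower (11.5%). The direction of this split depended on how the arrays were scaled: 31.4% of calls were higher on the deposited scale, against 59.5% after quantile normalization, 66.3% with equal medians and 60.3% with equal 75th percentiles. The total of 9625 also rested on single arrays. It was 3233, 1613 and 2533 without the Muguanuo array before cold, at 6 h or at 24 h, and 6393 without that of Geng87-304 before cold. The lower calls numbered 4326 without the Youmangzaogeng array at 6 h. The number of constant differences moved less with scaling, being 202 after quantile normalization, 198 with equal medians and 201 with equal 75th percentiles. It was 143 with a pseudocount of 64 and 374 with a pseudocount of 1. Their definition asks for large differences on these same arrays, so this steadiness was largely set in advance and is no support. The results below start from the constant differences.

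Constant differences numbered 198. In Muguanuo 77 probe sets were constantly higher (0.134% of those tested), with a median difference of 1.81, and 121 constantly lower (0.211%), with a median of -2.06. Many resembled a switch between signal and background. Of the 77 higher probe sets, 35 were above background on all 3 Muguanuo arrays and on none of the 6 comparison arrays, and of the 121 lower ones, 68 were under background on all Muguanuo arrays and above it on all 6 others. The largest difference in either direction was the 5.42 by which LOC4326970 was lower. A gene could be assigned to 36 of the higher and 73 of the lower probe sets, covering 35 and 69 genes, and few of these have a name in the reference table.

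The highest constant difference upwards belonged to LOC4334900, a gene with no name in the table. Its intensity was 1660, 1543 and 1569 in Muguanuo before cold, at 6 h and at 24 h, against 25.9, 22.9 and 26.5 in Geng87-304 and 40.5, 30.8 and 41.9 in Youmangzaogeng. The groups were far apart on every array, all 6 comparison arrays were under background, and the cold left the Muguanuo level nearly flat. The fitted difference was 4.69 ± 0.10 (SE; limma adjusted p = 1.98e-08), at least 12.3-fold. None of the 13 arrays of the other 5 accessions came near it, their intensities being 22.2 to 64.5. This probe set was therefore bright in Muguanuo alone among the 8 accessions measured.

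LOC4350075, also unnamed, read 1134, 780 and 522 in Muguanuo, 26.8, 25.5 and 16.5 in Geng87-304, and 27.0, 28.4 and 19.2 in Youmangzaogeng. It was at least 6.12-fold higher in Muguanuo (difference 3.86 ± 0.12, limma adjusted p = 2.72e-07), with no overlap, and its level in Muguanuo was lower on each later array. Outside these 3 accessions it was above background in IRAT109 (294.7 to 562.1) and not in the other 4, where the highest reading was 28.2. LOC4347709 read 1533, 1401 and 1341 in Muguanuo against 96.2, 101 and 139 in Geng87-304 and 88.2, 42.7 and 67.4 in Youmangzaogeng (difference 3.63 ± 0.21, limma adjusted p = 1.1e-05), with 4 of these 6 readings under background. Its neighbour among the measured genes, LOC4347708, was constantly higher as well, by 3.31. Both neighbours were thus at least 2-fold above the comparison pair at all 3 times. For LOC4347709 the indica cultivars 9311, ZS97 and MH63 were as high or higher (1299.1 to 3575.8 over the 3), IRAT109 was intermediate (330.8 to 470.9) and Lixingeng was low (57.8 to 117.8).

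Of the genes with a name, 3 were constantly higher. METK3, an S-adenosylmethionine synthase that makes the methyl donor of the cell, read 369, 381 and 395 in Muguanuo, 25.8, 25.1 and 23.8 in Geng87-304 and 21.5, 24.6 and 27.1 in Youmangzaogeng. The comparison arrays were all under background, so the difference of 2.87 ± 0.05 (limma adjusted p = 1.66e-08) is at least 3.14-fold, and the Muguanuo values changed little in the cold. Lixingeng was also under background for METK3 (20.3 to 26.0), whereas 9311, IRAT109, ZS97 and MH63 read 327.8 to 570.7. For METK3, then, it was the comparison pair and Lixingeng that lacked signal, and Muguanuo read within the range of the other 4 accessions.

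GER2, a germin-like protein of the family whose members are secreted to the cell wall, read 400, 310 and 362 in Muguanuo. It read 122, 80.0 and 60.0 in Geng87-304 and 75.1, 85.3 and 84.4 in Youmangzaogeng, a difference of 1.75 ± 0.13 (limma adjusted p = 5.08e-05) with no overlap. Of the 6 comparison readings 5 were under background, so no fold is given. Only 9311 came close among the other accessions, at 258.6 to 348.2, and the remaining 4 read 67.1 to 168.1. CIPK3, also listed as OsCIPK31 and one of the kinases that calcineurin B-like proteins activate upon a calcium signal, was the brightest of the 3. It read 3122, 3254 and 3376 in Muguanuo, 926, 1089 and 1308 in Geng87-304 and 813, 711 and 977 in Youmangzaogeng, which is 1.74 ± 0.15 higher (3.33-fold, limma adjusted p = 0.000148). Every Muguanuo array lay above all 13 arrays of the other 5 accessions, which read 684.0 to 2196.6. A dimmer probe set of CIPK3 differed in the same direction by less (136 to 172 in Muguanuo, 84.4 to 119 in the pair, difference 0.52, limma adjusted p = 0.00917).

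On the lower side, LOC4326970 was the extreme. It read 16.9, 15.5 and 18.5 in Muguanuo, 2467, 2238 and 1928 in Geng87-304 and 2386, 1909 and 1561 in Youmangzaogeng. Muguanuo was at least 15.8-fold lower (difference -5.42 ± 0.12, limma adjusted p = 1.98e-08), and stayed at background throughout the cold. So did 9311, IRAT109, ZS97 and MH63, with 12.3 to 24.5, while Lixingeng read 1763.2 to 2193.2. LOC4326970 was thus bright in Geng87-304, Youmangzaogeng and Lixingeng and dark in 5 accessions, Muguanuo among them.

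Another unnamed gene, LOC9268719, followed a related pattern. It read 26.3, 23.8 and 23.2 in Muguanuo, 1305, 1113 and 738 in Geng87-304 and 1323, 984 and 638 in Youmangzaogeng (at least 7.69-fold lower, difference -4.17 ± 0.14, limma adjusted p = 3.19e-07). It was bright in IRAT109 (699.8 to 1129.8) and Lixingeng (757.1 to 1174.0) and at most 31.9 in 9311, ZS97 and MH63.

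LOC4350295 and LOC4350299 lie next to each other among the measured genes and were low together. LOC4350295 read 6.88, 6.34 and 12.6 in Muguanuo against 471, 518 and 353 in Geng87-304 and 387, 380 and 382 in Youmangzaogeng (at least 3.36-fold lower, difference -3.45 ± 0.12, limma adjusted p = 4.2e-07). Of its 3 further probe sets, 2 were lower as well (-2.68 and -2.27, limma adjusted p = 3.18e-06 and 1.67e-06), and one that was under background on every array did not pass (-0.12, limma adjusted p = 0.0914). LOC4350299 read 20.9, 32.4 and 73.2 in Muguanuo, 2983, 2241 and 1004 in Geng87-304 and 2562, 1940 and 1273 in Youmangzaogeng. Its difference of -4.74 ± 0.33 (limma adjusted p = 3.89e-05) is at least 14.4-fold, and all 13 arrays of the other accessions exceeded Muguanuo, at 144.1 to 1587.8. The 2 neighbours differed in that respect, since LOC4350295 was also at background in 9311, ZS97 and MH63 (at most 24.2).

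Named genes that were constantly lower numbered 5. MADS56, a MADS-box transcription factor of the group that controls flowering time, read 12.2, 116 and 236 in Muguanuo. Its intensity was 785, 882 and 1028 in Geng87-304 and 1037, 1044 and 1102 in Youmangzaogeng, 3.06 ± 0.34 above Muguanuo (8.33-fold, limma adjusted p = 0.000782). The other 5 accessions read 627.1 to 1472.0, so low MADS56 signal was seen in Muguanuo alone of the 8 accessions. The Muguanuo reading before cold was under background, and those at 6 h and 24 h were 12.1% and 22.1% of the mean of the comparison pair. A constantly lower gene, LOC4349245 (-1.45), lies near MADS56 in the order of measured genes.

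THT2 and ASMT were lower as well. THT2 read 5.11, 5.55 and 11.0 in Muguanuo, 128, 134 and 103 in Geng87-304 and 282, 358 and 262 in Youmangzaogeng (at least 1.71-fold lower, difference -2.52 ± 0.33, limma adjusted p = 0.00183). ASMT, the acetylserotonin O-methyltransferase that makes melatonin from N-acetylserotonin, read 86.6, 83.1 and 57.7 in Muguanuo, 387, 372 and 245 in Geng87-304 and 620, 482 and 283 in Youmangzaogeng. Muguanuo was under 99.9 on all 3 arrays, though its readings before cold and at 6 h exceeded the fungal controls on those arrays. The difference of -1.95 ± 0.15 (limma adjusted p = 8.21e-05) is at least 3.13-fold. Across the other accessions both genes divided in one way: 9311, ZS97 and MH63 were under background, at most 10.6 for THT2 and 55.9 for ASMT, and IRAT109 and Lixingeng were above it, from 213.8 and 103.8 upwards.

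ACO1, an ACC oxidase that performs the last step of ethylene synthesis, read 156, 138 and 273 in Muguanuo. In Geng87-304 it read 531, 549 and 623 and in Youmangzaogeng 444, 451 and 1305, so the groups did not overlap, and the level was highest at 24 h in all 3 accessions. The difference was -1.57 ± 0.19 (2.98-fold, limma adjusted p = 0.00134). The indica cultivars 9311, ZS97 and MH63 had no signal above background (25.2 to 39.9), and IRAT109 and Lixingeng read 256.2 to 526.1, so Muguanuo lay between these sets of accessions before cold and at 6 h.

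For OsC3H2, a CCCH zinc finger gene also listed as OsDOS and known as a repressor of leaf senescence in rice, 2 probe sets disagreed. The representative one read 16.7, 29.5 and 126 in Muguanuo, 398, 617 and 1576 in Geng87-304 and 331, 499 and 1463 in Youmangzaogeng (difference -3.19 ± 0.10, limma adjusted p = 2.44e-07), and 2 of the 3 Muguanuo readings were under background. The other read 643, 1100 and 2339 in Muguanuo, 844, 1278 and 2579 in Geng87-304 and 736, 991 and 2406 in Youmangzaogeng (difference -0.13 ± 0.10, limma adjusted p = 0.384). Both were higher at 24 h than at 6 h in all 3 accessions, whereas the level difference of Muguanuo was seen with one. The probe set without that difference may also read related genes. The representative one was under background in IRAT109 (19.8 to 57.6) and ZS97 (32.1 to 43.2) as well. It read 168.4 to 1312.3 over 9311, Lixingeng and MH63. No direction is given for the transcript as a whole.

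MT-2 and NMCP1A, chosen after their values were seen because the probe sets that differ do not represent their genes, are given for the same reason. MT-2, a type 2 metallothionein, which binds metal ions through its cysteines, read 36.3, 391 and 720 in Muguanuo with its brightest probe set, one that may also read related genes. Geng87-304 read 6649, 6861 and 7415 and Youmangzaogeng 7860, 7500 and 7405 (difference -4.71 ± 0.49, 26.2-fold, limma adjusted p = 0.000522), and all other accessions 3248.8 to 5616.4. The Muguanuo reading before cold was again under background, and those at 6 h and 24 h were 5.44% and 9.72% of the comparison mean. Of 3 further MT-2 probe sets, all under background, 1 was lower too (-1.19, limma adjusted p = 0.000293), and the others did not pass (-0.07 and -0.04). NMCP1A, a nuclear matrix constituent protein, was at least 1.73-fold higher with one probe set, at 181, 184 and 224 in Muguanuo, 14.6, 57.4 and 46.6 in Geng87-304 and 34.3, 22.7 and 21.9 in Youmangzaogeng (difference 1.85 ± 0.18, limma adjusted p = 0.000387). Its brighter probe set read 817, 557 and 670 in Muguanuo, 681, 530 and 559 in Geng87-304 and 864, 502 and 468 in Youmangzaogeng, which did not pass (0.19, limma adjusted p = 0.248).

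**Figure D2:**
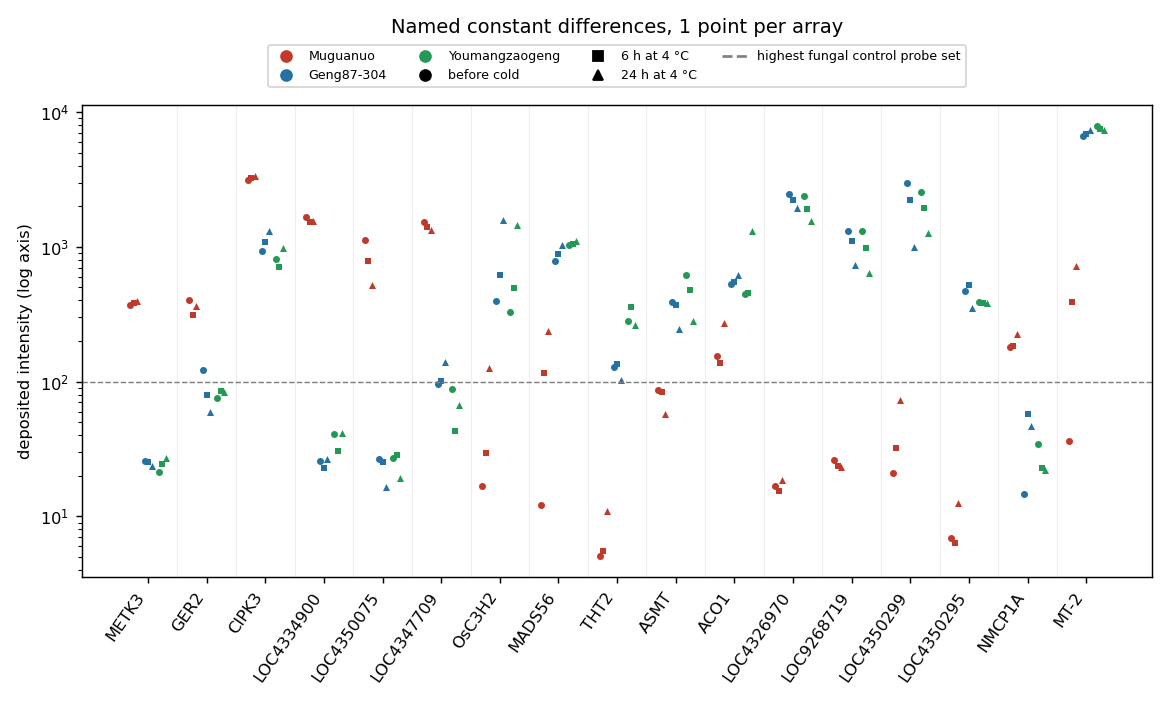
Deposited intensity (log axis) of each named probe set on the 9 arrays, coloured by accession and with the symbol giving the time; the dashed line is the highest Magnaporthe control reading, 99.9. Muguanuo lies on one side of all 6 comparison arrays for every probe set shown, and its 3 points spread most for MADS56 (12.2 to 236) and MT-2 (36.3 to 720).

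Agreement between probe sets of a gene was checked over all constant differences. The 198 probe sets covered 104 genes, of which 28 had a further probe set. For 16 of these a further probe set passed in the same direction, and for 4 one passed in the opposite direction. Where the further probe set was above background, which held for 14 genes, it passed in the same direction for 8. OsC3H2 and NMCP1A are examples of the remainder, and the 2 lower probe sets of LOC4350295 of the first kind. A level difference read by a single probe set can therefore not be told apart from a sequence difference under its probes.

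Constantly different genes often lay close to each other. Of the 96 genes whose representative probe set was constant and that could be placed in the gene order of the RefSeq assembly ASM3414082v1, 25 (26.0%) had another constant gene within 5 measured genes. Among all 17903 genes placed, 853 (4.76%) had a constant gene that near. The neighbours formed 11 runs, 3 of them with 3 genes. In the run with ASMT, the unnamed LOC4346779 (-2.06) and LOC4346790 (-2.80) were lower too. LOC4348459 (-3.07), LOC4348460 (-1.66) and LOC4348463 (-1.60) were lower together. Direction was not always shared, since LOC4347975 (-1.85) and LOC4347977 (-2.79) lay beside LOC4347978 (1.75). Of the 11 runs, LOC4326970 shared one with LOC4327002 (-2.0).

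The other 5 accessions were read at the same probe sets. Of the 68 lower switches, bright in Geng87-304 and Youmangzaogeng and dark in Muguanuo, 54 were under background on every array of 9311, 53 on those of ZS97 and 46 on those of MH63, but 31 on those of IRAT109 and 24 on those of Lixingeng. Lixingeng was above background on all its arrays for 42 of the 68 and IRAT109 for 32. Over all probe sets, 288 were above background on all 6 comparison arrays and on no Muguanuo array, whatever the test, and of these 85 were dark in 9311, 81 in ZS97, 83 in MH63, 43 in IRAT109 and 68 in Lixingeng. Lixingeng was above background on all its arrays for 134 of the 288 and IRAT109 for 188. The 35 upward switches were less divided: 20 were dark in 9311, 19 in IRAT109, 21 in ZS97, 20 in Lixingeng and 20 in MH63. Of the 120 upward switches among all probe sets, 75, 69, 69, 69 and 62 were dark in the same order, a like share. Muguanuo lay outside the range of all 19 other arrays used for 23 of the 77 higher probe sets (29.9%) and 25 of the 121 lower ones (20.7%), against 0.821% and 4.03% of all probe sets. Being outside the 6 comparison arrays is part of how these probe sets were chosen, so the shares are a description.

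**Figure D3:**
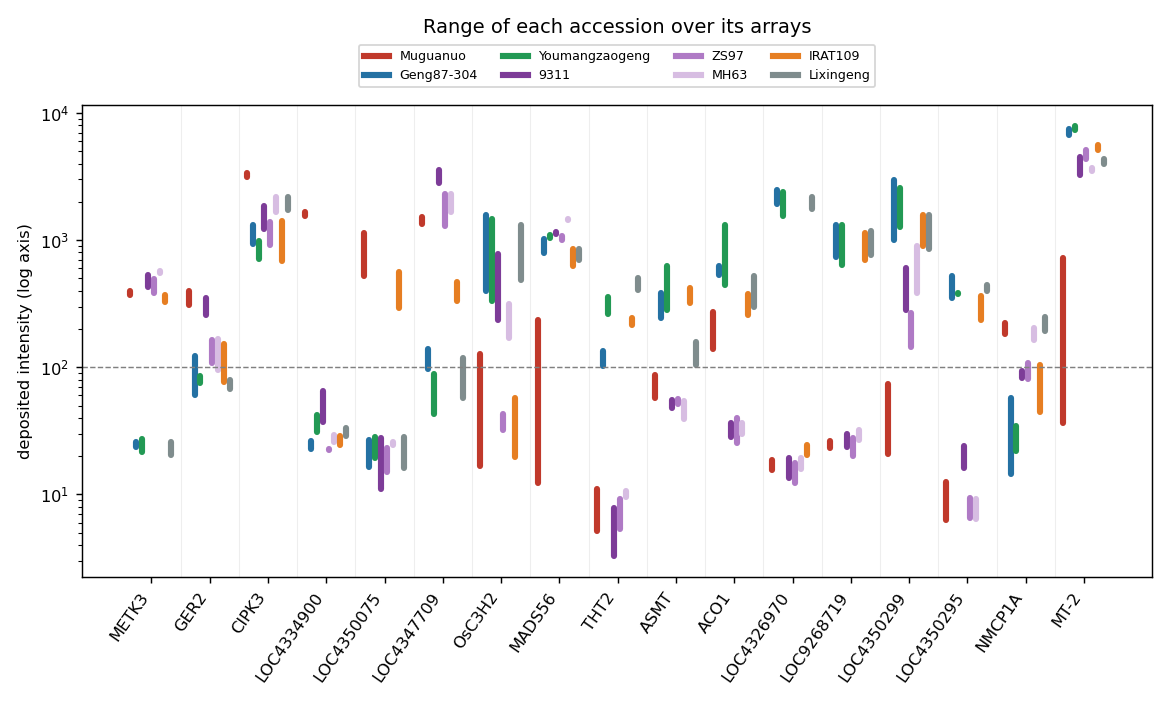
Lowest to highest intensity (log axis) of each named probe set over the arrays of each of the 8 accessions, without the Lixingeng array before cold and the MH63 array at 24 h; the dashed line is at 99.9. LOC4334900 is bright in Muguanuo only, MADS56 and MT-2 are low in Muguanuo only, and THT2, ACO1 and LOC4350295 are also low in 9311, ZS97 and MH63.

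Smaller differences were read from lists of genes matched by symbol, with 1 probe set per gene. Of all 17905 genes measured, 1502 passed as higher and 1600 as lower (17.3% together), with a median difference of -0.018. Rescaling the arrays moved that split to 2506 and 754 with equal medians, 2235 and 848 with equal 75th percentiles and 1999 and 944 with quantile normalization, with medians of 0.056, 0.041 and 0.026. In the lists, 78 genes passed, and 12 of them kept their call under every alternative tried. When a Muguanuo array was left out, 50 of the 78 calls were lost without the array before cold, 61 without that at 6 h and 44 without that at 24 h. The list genes named from here on, other than GER2 and CIPK3, were chosen after their values were seen.

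Jasmonate genes differed in both directions. Of 31 measured, 5 passed as higher and 3 as lower, with a median of -0.001 that turned slightly positive after rescaling (0.019 to 0.03). JAZ8, a repressor of jasmonate responses, read 565, 568 and 513 in Muguanuo, 219, 191 and 181 in Geng87-304 and 328, 238 and 267 in Youmangzaogeng, and was higher by 1.13 ± 0.15 (limma adjusted p = 0.00186, higher at all 6 matched comparisons). CM-LOX2, a lipoxygenase, read 48.4, 67.1 and 121 in Muguanuo, 133, 188 and 339 in Geng87-304 and 126, 195 and 305 in Youmangzaogeng, 1.13 ± 0.07 higher than Muguanuo (limma adjusted p = 1.68e-05) and read higher on each later array in all 3 accessions. Its Muguanuo readings before cold and at 6 h were under background. The allene oxide synthase LOC4332121 (AOS), which commits lipid peroxides to jasmonate, was lower by 0.76 (limma adjusted p = 0.00608), a call lost without the Muguanuo array at 6 h (-0.74, limma adjusted p = 0.0601).

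Of 10 abscisic acid genes, 4 passed as higher and 0 as lower with limma (also 4 and 0 at an unadjusted p under 0.05), with a median of 0.156. All 4 are clade A protein phosphatases 2C, which hold down abscisic acid signalling: ABIL1 (0.66), PP2C30 (0.61), OsPP2C09 (0.45) and OsPP2C08 (0.26). None of the 4 passed without the Muguanuo array at 6 h or that at 24 h, and 1 did without that before cold. Of 7 LEA proteins and dehydrins, which accumulate in drying tissue, 2 passed as lower and 0 as higher with limma (3 and 0 at an unadjusted p under 0.05). RAB21, a dehydrin, read 168, 223 and 257 in Muguanuo, 356, 344 and 500 in Geng87-304 and 419, 429 and 529 in Youmangzaogeng (-0.90 ± 0.10, limma adjusted p = 0.00097), and the 13 arrays of other accessions read 269.6 to 4106.9, all above Muguanuo. LEA19 was lower by 0.88 (limma adjusted p = 0.0147), which no longer passed without the Muguanuo array before cold (-0.65, limma adjusted p = 0.0848) or that at 24 h (-0.91, limma adjusted p = 0.0731).

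Of 12 clock and flowering genes, 4 passed as higher and 0 as lower with limma (6 and 0 at an unadjusted p under 0.05), with a median of 0.234 that stayed positive under each rescaling (0.212 to 0.345). GI, a core clock component, read 1654, 2288 and 2575 in Muguanuo, 1165, 1687 and 1732 in Geng87-304 and 1503, 1630 and 1400 in Youmangzaogeng (0.50 ± 0.12, limma adjusted p = 0.0216). The pseudo-response regulators PRR1, PRR95 and DTH7 were higher by 0.55, 0.53 and 0.31, each above both accessions at all 3 times. Without the Muguanuo array before cold or that at 6 h none of the 12 passed, and without that at 24 h 1 did. None passed without the time point as a block either. Sampling hour is not given in the labels, and its part was not tested.

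Among 77 calcium sensors and their kinases, 7 passed as higher and 5 as lower, with a median of 0.03. The split was 14 and 1 with equal medians, 13 and 2 with equal 75th percentiles and 11 and 2 with quantile normalization, so no direction is given for the list. CIPK3 was the one constant member. CML20, a calmodulin-like protein, read 107, 169 and 300 in Muguanuo, 34.4, 67.5 and 99.5 in Geng87-304 and 45.7, 88.9 and 158 in Youmangzaogeng (0.97 ± 0.12, limma adjusted p = 0.00142). CIPK14 read 72.1, 126 and 564 in Muguanuo, 270, 308 and 899 in Geng87-304 and 196, 260 and 739 in Youmangzaogeng (-0.95 ± 0.16, limma adjusted p = 0.00601), a call lost without the Muguanuo array at 6 h (-0.92, limma adjusted p = 0.0595). Both read higher on each later array in the 3 accessions, CML20 from a higher and CIPK14 from a lower starting level in Muguanuo. For CML20 every comparison reading but that of Youmangzaogeng at 24 h was under background, so the size of its difference is not read.

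Of 33 starch and sugar genes, 2 passed as higher and 4 as lower, with a median of 0.041. With equal medians or equal 75th percentiles 5 were higher and 2 lower, and with quantile normalization 4 and 3. SS1, soluble starch synthase I, read 455, 648 and 683 in Muguanuo, 225, 265 and 315 in Geng87-304 and 313, 335 and 278 in Youmangzaogeng, and was higher by 0.96 ± 0.13 (limma adjusted p = 0.00205). Of 55 expansins and wall synthases, 6 passed as higher and 3 as lower, with a median of -0.021. The higher ones included 5 cellulose synthase subunits, CESA1, CESA2, CESA4, CESA5 and CESA8, by 0.43 to 0.47. None of these 5 passed without the Muguanuo array at 6 h (0.44 to 0.56, limma adjusted p from 0.0595 to 0.117), nor without that at 24 h, and 1 of the 5, CESA2, passed without that before cold. CSFL8, a cellulose synthase-like protein, was the other higher one (0.93, limma adjusted p = 0.00903), with all 6 comparison readings under background.

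Aquaporins gave 3 higher and 6 lower of 25, with a median of -0.056 that became 0.035 with equal medians, under which 5 were higher and 1 lower, so no direction is given for them. Of 14 diterpenoid phytoalexin genes, 3 passed as higher and 4 as lower, but 9 of the 14 were under background. CYP71Z6, a cytochrome P450 of this pathway, read 187, 200 and 196 in Muguanuo, 40.2, 44.9 and 25.6 in Geng87-304 and 81.1, 105 and 86.1 in Youmangzaogeng (1.31 ± 0.25, limma adjusted p = 0.0107). That call was lost without any 1 of the Muguanuo arrays (1.23 to 1.37, limma adjusted p from 0.0531 to 0.073), and Youmangzaogeng read above Geng87-304 at each time. Among the comparison readings of CYP71Z6, only that of Youmangzaogeng at 6 h was above background.

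The remaining lists are given as counts, beside the 17.3% that passed of all genes measured. Of 30 cytochromes P450, 2 passed as higher and 5 as lower, 23.3% together (2 and 2 with equal medians or quantile normalization, 2 and 3 with equal 75th percentiles). Among these calls, CYP71Z6, CYP76M6, CYP99A2 and CYP99A3 were also counted in the diterpenoid list and AOS in the jasmonate list. Of 43 heat shock proteins and factors, 3 were higher and 3 lower. Of 16 pathogenesis-related and germin-like proteins, 1 was higher (GER2) and 2 were lower, GER6 (-0.68) and NH1 (-0.39), a homologue of Arabidopsis NPR1 that entered through its synonym PR2. Of 25 ribosomal proteins 1 was lower and 0 higher with limma (7 and 0 at an unadjusted p under 0.05), with a median of -0.2 (-0.189 to -0.091 after rescaling). Without the Youmangzaogeng array before cold 8 passed as lower, and with each accession as a level of its own 4 did. Of 11 cold regulators 1 was higher, DREB2A, by 0.32, with all 9 values under background. The list of 6 immune receptor genes is not read as a group, since its members were matched by symbol or synonym alone. MADS4, MADS2 and D1 are not immune receptors and entered through synonyms. Pir7b (-0.50), the 1 that passed, was matched by the start of its symbol and is not read as a receptor. Of 6 glutathione S-transferases 1 was higher, of 6 WRKY factors 1 was higher and 1 lower, and of 8 NAC factors and 3 peroxidases 0 passed with limma, adjusted or unadjusted. Lists of receptor kinases and F-box proteins could not be filled, since the reference table gives symbols and no product names.

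The cold changes could be described only as values, since each accession had 1 array per time. No array without cold was available at 6 h or 24 h. An effect of the cold therefore cannot be told apart from one of the time of day or of the move to the chamber. In Muguanuo, 814 probe sets changed at least 2-fold from before cold to 6 h (1.42% of those tested), 377 upwards and 437 downwards. The number was 519 in Geng87-304 (0.906%; 334 upwards and 185 downwards) and 635 in Youmangzaogeng (1.11%; 326 upwards and 309 downwards). At 24 h the totals were close to each other: 2673 in Muguanuo (4.67%), 2594 in Geng87-304 (4.53%) and 2682 in Youmangzaogeng (4.68%). The downward number of Muguanuo at 6 h depended on scaling: after quantile normalization it was 295, with 429 upwards, against 354 and 160 in Geng87-304 and 352 and 234 in Youmangzaogeng.

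The early cold factors DREB1A and DREB1B were read at between 4048 and 5228 at 6 h in all 3 accessions. DREB1A read 56.1 in Muguanuo before cold, against 200 in Geng87-304 and 274 in Youmangzaogeng. At 6 h it read 4602, 4048 and 4581 in the same order, and at 24 h 2674, 2310 and 1849. The change at 6 h was accordingly 5.72 in Muguanuo, 4.14 in Geng87-304 and 3.92 in Youmangzaogeng. DREB1B read 45.6, 90.4 and 156 before cold and 4970, 4341 and 5228 at 6 h, with changes of 6.01, 5.16 and 4.81. For DREB1A the larger change of Muguanuo came with a lower reading before cold, itself under background. For DREB1B Muguanuo and Geng87-304 were both under background before cold, so their order is not read. DREB1G changed by 2.67, 3.42 and 2.51 at 6 h, and MYB2, an R2R3 MYB factor, by 4.12, 4.26 and 3.86. Both genes were under background before cold in all 3 accessions, so their order is not read either. DREB1E moved little in any accession (0.26, 0.71 and 0.46 at 6 h).

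The hormone and clock genes listed moved the same way from before cold in all 3 accessions. ABA8OX1, which breaks down abscisic acid, went from 66.6 to 2788 and 5763 in Muguanuo, from 97.3 to 2782 and 5263 in Geng87-304 and from 125 to 2692 and 3756 in Youmangzaogeng. The repressors JAZ9, JAZ10 and JAZ13 changed by 3.50, 3.68 and 3.09 at 6 h in Muguanuo. In Geng87-304 the same changes were 2.74, 3.53 and 2.49, and in Youmangzaogeng 3.57, 3.94 and 3.69. PCL1, a clock gene, changed by 2.50, 1.74 and 2.3 at 6 h and by 5.38, 5.26 and 5.67 at 24 h, in the order Muguanuo, Geng87-304, Youmangzaogeng. With a pseudocount of 1 the 6 h changes of JAZ13 were 4.64, 3.96 and 4.56 and those of PCL1 3.09, 2.28 and 3.16 in that order, so no order of the accessions is read from these genes.

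The signalling genes CML16, WRKY24, HSF03 and ACA7 read higher at 24 h than before cold in all 3 accessions. CML16, a calmodulin-like protein, changed by 3.88 in Muguanuo, 2.90 in Geng87-304 and 3.43 in Youmangzaogeng at 6 h, and by 4.63, 3.50 and 4.02 at 24 h. WRKY24 changed by 3.92, 2.94 and 3.03 at 24 h, HSF03 by 4.26, 4.66 and 4.40, and ACA7, a calcium pump, by 4.41, 3.77 and 4.08. WRKY24, HSF03 and ACA7 were under background before cold in all 3 accessions, so their order is not read. EXPB4, EXPB7, HOX4 and CIPK5 read lower at both cold times than before cold in all 3 accessions. EXPB4, a wall-loosening beta-expansin, changed by -2.64 in Muguanuo, -1.31 in Geng87-304 and -1.92 in Youmangzaogeng at 6 h and by -3.64, -3.01 and -2.36 at 24 h. EXPB7 changed by -2.09, -1.65 and -1.61 at 6 h, HOX4, a homeobox gene, by -2.14, -1.21 and -1.46, and CIPK5 by -1.72, -1.98 and -2.12.

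Named genes whose Muguanuo change lay farthest outside both others, chosen by that distance and so given without a test, were led upwards by MADS56, with 1.75 at 6 h against 0.16 in Geng87-304 and 0.01 in Youmangzaogeng, and 2.60 against 0.38 and 0.08 at 24 h. DREB1A followed at both times. CML31, a calmodulin-like protein, changed by 3.76 against 2.80 and 2.54 at 6 h. NAS2, a nicotianamine synthase, was under background in Muguanuo before cold (24.0) and went from 447 to 74.8 in Geng87-304. RBCS, the small subunit of Rubisco, read 1334, 2720 and 4443 in Muguanuo, 1716, 2071 and 2166 in Geng87-304 and 1736, 2260 and 1823 in Youmangzaogeng. Its Muguanuo level was thus the lowest of the 3 before cold and the highest at 24 h. BURP16 changed by 1.31 at 24 h against -0.08 and -1.82, with all Muguanuo values under 99.9 (17.0, 58.9 and 89.8). ASMT3 stayed at background in Muguanuo (14.0 to 17.9) while it went from 161 to 51.8 and from 266 to 97.5 in the others.

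Downwards, ML, a mannose-binding lectin also listed as salT, read 1126, 543 and 664 in Muguanuo, 1239, 1416 and 1157 in Geng87-304 and 1109, 1429 and 1415 in Youmangzaogeng. Its level was alike before cold and lower in Muguanuo at both later times, with a change of -1.01 at 6 h against 0.19 and 0.36. EXPB6, another beta-expansin, changed by -1.83 against -0.73 and 0.02 at 6 h. BURP2 changed by -1.09 against -0.02 and 0.11, and OsCASPL1B1 by -1.07 against -0.03 in both. At 24 h GRXC10, a glutaredoxin, read 118 in Muguanuo, 732 in Geng87-304 and 362 in Youmangzaogeng, from 24.8, 44.3 and 39.3 before cold. CYCP2-1, a P-type cyclin, changed by -2.49 against -1.65 and -1.64. It read 462 in Muguanuo, 181 in Geng87-304 and 221 in Youmangzaogeng before cold, and was under background at 24 h in each. These genes show where the single Muguanuo arrays departed from the pair, with no replicate to set the departure against.

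**Figure D4:**
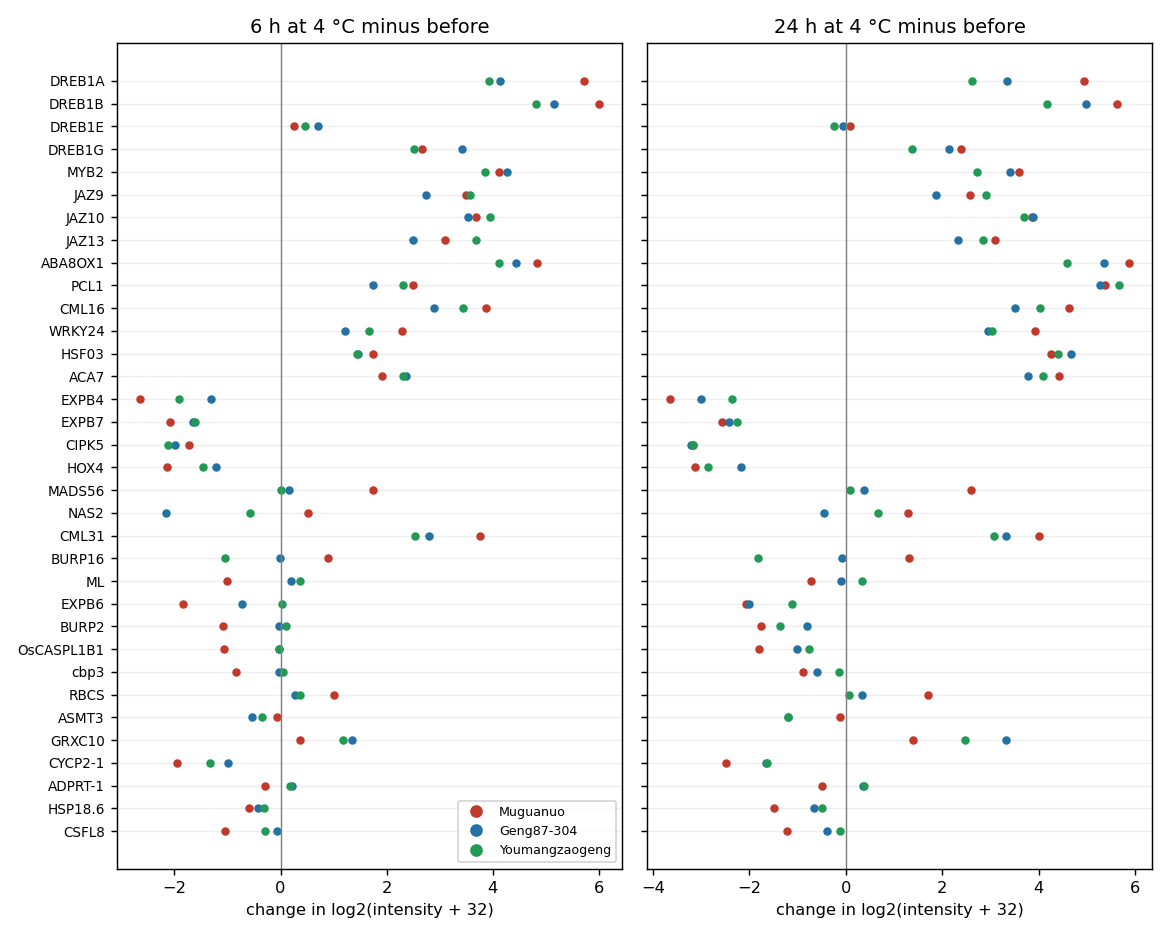
Change in log2(intensity + 32) from before cold to 6 h (left) and 24 h (right) for each named cold gene, 1 point per accession from 1 array at each time. The 18 genes listed first, from DREB1A to HOX4, moved the same way in all 3 accessions at both times except DREB1E at 24 h, and the rest were chosen because Muguanuo lay outside the other 2.

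Cold changes of the constant probe sets are set beside those of all 57258, of which 814 changed at least 2-fold in Muguanuo at 6 h and 2673 at 24 h, with a median size of 0.096 and 0.121. Of the 77 higher ones, 1 changed at least 2-fold in Muguanuo at 6 h and 12 at 24 h, and the median size of their change was 0.222 and 0.311. Of the 121 lower ones, 7 changed that much at 6 h and 13 at 24 h, with median sizes of 0.124 and 0.192. In Geng87-304 4 and 26 of the 121 did, and in Youmangzaogeng 6 and 25. Over all probe sets the numbers were 519 and 2594 in Geng87-304 and 635 and 2682 in Youmangzaogeng. Of the 121, 87 were under background on every Muguanuo array, and 102 were above it on every comparison array. A 2-fold change was thus harder to reach in Muguanuo on this scale, so these counts are not compared between accessions. MADS56 and MT-2 are among the 7 that changed in Muguanuo at 6 h.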

How the data were processed

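The authors deposited 1 table of linear intensity values per probe set (57381 probe sets, 24 arrays), read here as signal from a rice GeneChip, per the labels. The software that summarised and scaled the intensities is not given in the sources used here. Of the probe sets, 123 controls were left out and 57258 tested. Gene names came from the platform annotation and a RefSeq table (assembly ASM3414082v1): 22436 probe sets had 1 gene and 95 several, covering 17905 genes, 2451 of them with a name other than a locus number. The remaining probe sets carry no gene here.

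The values were taken as deposited and transformed to log2(intensity + 32). limma 3.58.1 in R 4.3.3 (lmFit, then eBayes with an intensity trend) fitted the 9 arrays with time point as a fixed block and group at 2 levels, which leaves 5 residual degrees of freedom, with Benjamini-Hochberg adjustment across every probe set tested. The fit was tested on simulated data with the residual spread of these arrays: 97 of 100 probe sets shifted by 1 log2 unit were recovered and 99 of 100 shifted by 2, with 13 false calls among 57258. The simulated noise was independent between arrays, with no array-wide shift and no time effect. Its number of false calls therefore does not carry over to the real arrays, where calls moved with scaling and with single arrays. Tables were made with Python 3.11.15. The number of arrays limits the precision.

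For each gene the probe set brightest on average over the 24 arrays was used, those marked as cross-reacting being set aside where the gene had another. Genes were named by rule: constant genes with a name, the first 4 constant genes of each direction, constant list members, 18 cold genes, and at each cold time the 5 named genes farthest above and below both comparison accessions. The members, the lists, the cold genes and the background level were chosen with earlier results of these data known. Alternatives were 3 further pseudocounts (1, 16 and 64), 3 scalings, a low-value filter, other models, and leaving out each array in turn. No sequence or coordinate is given, since no genome of the array's design was used here.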

Additional observations from a re-analysis of the deposited data

Results flagged for a closer look

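One value among the named constant genes stood far from the rest of its group. ACO1, the ACC oxidase gene, read 1305 in Youmangzaogeng at 24 h, against 444 to 623 on the other 5 comparison arrays. The gap to the nearest array was 0.691 of the whole range on the log2 scale, above Dixon's 95% critical value for 6 arrays, which chance exceeds in about 1 of 20 groups. The array is the latest cold sample of that accession, so the value is also a change over time within one accession, and which of these it reflects was not tested. The call for ACO1 was kept when that array was left out.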

How the results depend on the processing

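The 17 named constant differences kept their direction and their call under each of the 389 alternative values computed. They had been chosen on these same arrays for large differences of one sign, so this outcome was largely set by the choice and is no independent support. Counts were less stable. Leaving out 1 array moved the number of probe sets passed between 1613 and 10675 (809 to 3208 higher, 804 to 7467 lower) and that of constant ones between 200 and 260. Fewer matched differences then had to hold, so the constant number could more easily rise than fall. Without the time point as replicate block 2781 passed (933 higher and 1848 lower), and with accession at 3 levels 15636 (4801 and 10835). The low-value filter, with fewer probe sets tested, left 4947 passed (1630 and 3317). Quantile normalization gave 2810 lower, equal medians 4995 higher and 2540 lower, and equal 75th percentiles 2908 lower. Against Geng87-304 alone 10237 were lower and 368 constant, and against Youmangzaogeng alone 361 were constant. Constant differences numbered 143 with a pseudocount of 64 and 374 with a pseudocount of 1. The cold counts with a pseudocount of 1 were 1616 and 4394 in Muguanuo, 974 and 4109 in Geng87-304, and 1271 and 4374 in Youmangzaogeng. The pair counts, recomputed by alternatives chosen after seeing the data, were 1118, 1151 and 511 with a pseudocount of 1, and for Youmangzaogeng minus Geng87-304 206 with a pseudocount of 64 and 199 with the filter. The cause of these shifts was not tested. Of 1748 values of list genes that passed, 401 lost their call and 0 reversed, and of 408 values of cold changes in Muguanuo 57 moved by more than the spread of the accessions, 0 reversing. Readings under 99.9 were called background, though the highest controls on the Muguanuo arrays were 63.1 to 82.1. Some readings so called lay above the controls of their own array.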
